A study of Mus musculus with 11 samples.

Results

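Immediate early genes are transcribed within minutes of a stimulus without new protein synthesis, and their RNA is short-lived. Fos and Jun proteins pair through a basic leucine zipper to form the transcription factor AP-1. Egr proteins are zinc finger transcription factors of the same early response. In the gut they are known to respond to growth factors, stretch, injury and microbial products, and dissection of tissue can induce them as well. Here 10 such genes (*Fos*, *Fosb*, *Fosl1*, *Fosl2*, *Jun*, *Junb*, *Jund*, *Egr1*, *Egr2* and *Egr3*) were described in mouse colon. They were taken by gene name from a count table of 43346 genes, with earlier results of the same table known. All 10 were among the 19863 genes that passed the low-expression filter and were tested.

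RNA was measured in colonic tissue of male Swiss Webster mice, 5 of them germ-free and 6 humanized, at 8 to 10 weeks of age. Humanized mice were raised germ-free and were gavaged at 4 to 5 weeks of age with 300 μL of stool suspension from 1 human donor, so the group stands for the microbiota of 1 donor. Both groups lived singly in isolators on an autoclaved diet. The segment of colon and the hour of collection are not given in the sources used here. The labels number the mice within each group, and these numbers name them below.

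Counts per mouse ranged from 49097005 to 64148538 in germ-free mice and from 39125290 to 54219854 in humanized mice. No sequencing batch is named in the labels, so no within-batch values could be given. Levels are RPKM, which scale the reads of a gene by its deposited coding length and by the TMM-normalized library size, and errors are SD between mice (n = 5 when germ-free, n = 6 when humanized). Log2-fold changes (LFC) are humanized over germ-free. Genes were called at FDR below 0.01 in edgeR's exact test, and standard errors (SE) come from edgeR's quasi-likelihood fit. The 10 genes were chosen by their levels in this same contrast, germ-free against humanized mice, so for them it is a description without a test. Over all tested genes, 10.1% were called lower and 9.2% higher in humanized mice, and the median LFC was 0.01. Scaled by total counts instead of TMM, 3609 genes were called lower and 773 higher, against 1999 and 1827.

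Markers of large intestinal epithelium differed widely in level. *Muc2*, the main mucin of goblet cells, stood at 752.4 ± 180.7 RPKM in germ-free and 1038 ± 244.1 RPKM in humanized mice. *Clca1*, also a goblet cell gene, stood at only 1.37 ± 0.14 and 1.35 ± 0.37 RPKM, and *Slc26a3*, the chloride exchanger of colonocytes, at 11.2 ± 2.11 and 24.5 ± 22.7 RPKM. *Hoxb13*, a Hox gene of the hindgut, reached no more than 4 counts in any mouse and was not tested. Of 10 small intestinal genes 8 were tested, and *Sis*, sucrase-isomaltase, was called lower (13.5 ± 4.12 and 4.48 ± 3.59 RPKM, LFC −1.59, exact test FDR = 0.00873) and *Fabp1* higher (0.0804 ± 0.0662 and 0.785 ± 0.221 RPKM, LFC 3.19, exact test FDR = 4.50e-12), while 6 did not pass. Among those 6, *Fabp2*, a fatty acid binding protein, was abundant at 497.6 ± 94.0 and 599.8 ± 144.2 RPKM, and *Apob*, an apolipoprotein of chylomicrons, stood at 16.7 ± 2.59 and 7.73 ± 6.03 RPKM. Lactase (*Lct*), not tested, reached no more than 29 counts in any mouse.

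Promoter sequence is shown for *Fos*, *Fosb* and *Egr2*, which stood lower in humanized mice, and for *Jun*, which stood higher. RefSeq promoters on GRCm38.p6 were found for 7 of the 10 genes, all but *Fosl1*, *Egr1* and *Egr3*. The 250 bases before each start were searched on both strands for TGACG, which lies within the full cAMP response element TGACGTCA, for TGACGTCA itself, for the AP-1 sites TGACTCA and TGACATCA, for the Egr site GCGNGGGCG, for TATAAA and for the CArG box of serum response factor. The windows below hold 140 of these bases, from −150 to −11 relative to the start, with matches in capitals. They lie at chr12:85473740-85473879 on the plus strand (*Fos*), chr7:19310056-19310195 on the minus strand (*Fosb*), chr10:67537719-67537858 on the plus strand (*Egr2*, 1 of 5 listed starts) and chr4:95052233-95052372 on the minus strand (*Jun*).
Fos: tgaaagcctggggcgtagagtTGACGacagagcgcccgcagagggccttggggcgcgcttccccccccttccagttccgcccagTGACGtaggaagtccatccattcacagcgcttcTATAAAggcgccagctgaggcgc
Fosb: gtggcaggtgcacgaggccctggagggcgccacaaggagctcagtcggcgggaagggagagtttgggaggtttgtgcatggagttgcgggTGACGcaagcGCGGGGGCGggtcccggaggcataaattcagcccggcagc
Egr2: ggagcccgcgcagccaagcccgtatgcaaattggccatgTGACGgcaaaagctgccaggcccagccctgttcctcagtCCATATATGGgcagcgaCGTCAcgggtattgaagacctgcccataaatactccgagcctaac
Jun: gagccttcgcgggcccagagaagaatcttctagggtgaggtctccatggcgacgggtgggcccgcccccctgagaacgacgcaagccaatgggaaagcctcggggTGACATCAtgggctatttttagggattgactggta

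In *Fos*, TGACG stood at −129 to −125 and at −66 to −62, and TATAAA at −33 to −28. *Fosb* held TGACG at −60 to −56 and GCGNGGGCG at −50 to −42. *Jun* held TGACATCA at −45 to −38. In *Egr2* a CArG box at −72 to −63 stood between TGACG at −111 to −107 and another TGACG, on the opposite strand, at −55 to −51. The other *Egr2* starts differed, as the start at 67535499 held none of the letters searched, the start at 67537566 held another CArG box and no TGACG, and those at 67537870 and 67537930 held the same sites at other distances. Of the 3 genes not shown, *Junb* held TGACG at −106 to −102, *Fosl2* held GCGNGGGCG at −79 to −71, and *Jund* held none of the letters searched. Among 32817 distinct RefSeq promoters, 17.7% held TGACG, 1.55% TGACGTCA, 4.46% TGACTCA, 2.93% TGACATCA, 4.7% GCGNGGGCG, 12.4% TATAAA and 1.47% a CArG box.

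*Fosb* (ENSMUSG00000003545, chromosome 7, 19302721 to 19310045 on mm10) had the lowest humanized level relative to germ-free of the 10 genes. It encodes a Fos protein and, by splicing, the long-lived ΔFosB. Germ-free mice 1 to 5 stood at 3.54, 4.69, 3.10, 4.62 and 4.77 RPKM, while humanized mice ranged from 0.359 to 1.08 RPKM with a median of 0.524. Every humanized mouse was below every germ-free mouse, and the lowest germ-free level was 2.87 times the highest humanized level. Raw counts were 679 to 1250 in germ-free mice and 50 to 192 in humanized mice. Means were 4.14 ± 0.77 and 0.589 ± 0.256 RPKM, a 7.0-fold lower level (LFC −2.81, SE 0.25).

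*Fos* (ENSMUSG00000021250, chromosome 12, 85473890 to 85477273) encodes c-Fos, the founding partner of Jun in AP-1. Germ-free mice stood at 42.4, 31.3, 37.6, 39.2 and 59.7 RPKM, and humanized mice ranged from 10.3 to 39.3 RPKM with a median of 18.1. The groups overlapped through humanized mouse 6 alone, the next highest humanized mouse standing at 20.05 RPKM. Means were 42.0 ± 10.6 and 19.6 ± 10.4 RPKM, 2.15-fold lower (LFC −1.10, SE 0.30). Without humanized mouse 6 the groups did not overlap and the LFC was −1.43.

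The other Fos genes stood nearer to equal levels. *Fosl2* (ENSMUSG00000029135, chromosome 5, 32136472 to 32157831), which encodes Fra-2, stood at 30.8, 30.5, 30.7, 29.5 and 28.2 RPKM in germ-free mice and at 30.8 to 45.3 RPKM with a median of 32.1 in humanized mice. The ranges met at 30.8 RPKM without overlapping, and humanized mice 5 and 6 alone stood above 40 RPKM. Means were 29.9 ± 1.12 and 35.7 ± 6.62 RPKM (LFC 0.26, SE 0.11). *Fosl1* (ENSMUSG00000024912, chromosome 19, 5447703 to 5455945), which encodes Fra-1, stood at 0.808, 1.05, 0.912, 0.873 and 0.788 RPKM in germ-free mice and at 0.308 to 0.962 RPKM with a median of 0.713 in humanized mice. These ranges overlapped, with a difference of LFC −0.36 (SE 0.24).

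*Jun* (ENSMUSG00000052684, chromosome 4, 95049034 to 95052222) encodes c-Jun, which can pair with itself or with Fos. It stood at 22.1, 21.9, 27.4, 31.3 and 29.6 RPKM in germ-free mice and at 31.5 to 48.6 RPKM with a median of 38.7 in humanized mice. Every humanized mouse was above every germ-free mouse, though germ-free mouse 4 and humanized mouse 2 were close. Means were 26.5 ± 4.31 and 39.2 ± 6.00 RPKM, 1.48-fold higher (LFC 0.57, SE 0.12). *Jun* thus differed from *Fos*, *Fosb* and *Egr1* in direction.

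*Junb* and *Jund* overlapped between the groups. *Junb* (ENSMUSG00000052837, chromosome 8, 84976909 to 84978748), a weaker activator that can oppose c-Jun, stood at 41.9, 40.0, 38.4, 33.1 and 40.9 RPKM in germ-free mice and at 33.9 to 62.8 RPKM with a median of 45.4 in humanized mice (LFC 0.28, SE 0.14). *Jund* (ENSMUSG00000071076, chromosome 8, 70697739 to 70700616), the most constitutive of the Jun genes, stood at 96.9, 103.9, 121.4, 123.2 and 122.7 RPKM in germ-free mice and at 58.5 to 117.2 RPKM with a median of 93.8 in humanized mice (LFC −0.31, SE 0.15). It was the most abundant of the 10 genes in every mouse. The library preparation was unstranded and 2 members share ground with other genes, *Junos* covering 689 bases of *Jun* and *Gm11175* covering 543 bases of *Jund*. Reads from these shared stretches cannot be told apart by strand. None of the other 8 overlapped another gene.

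*Egr1* (ENSMUSG00000038418, chromosome 18, 34859823 to 34864984) is a target of serum response factor and the most abundant Egr gene here. Germ-free mice stood at 11.9, 9.50, 9.89, 11.1 and 16.7 RPKM, and humanized mice ranged from 1.72 to 5.19 RPKM with a median of 3.43. The groups did not overlap, and the lowest germ-free level was 1.83 times the highest humanized level. Means were 11.8 ± 2.90 and 3.30 ± 1.36 RPKM, 3.58-fold lower (LFC −1.84, SE 0.27).

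*Egr2*, known from myelinating Schwann cells, and *Egr3*, known from muscle spindles, were both sparsely counted. *Egr2* (ENSMUSG00000037868, chromosome 10, 67535475 to 67542188) stood at 0.266, 0.287, 0.297, 0.419 and 0.404 RPKM in germ-free mice and at 0.0496 to 0.219 RPKM with a median of 0.147 in humanized mice. These groups did not overlap and differed 2.46-fold (LFC −1.30, SE 0.35), on 51 to 96 counts against 8 to 31. *Egr3* (ENSMUSG00000033730, chromosome 14, 70077445 to 70080157) stood at 0.314, 0.256, 0.302, 0.362 and 0.626 RPKM in germ-free mice and at 0.141 to 0.641 RPKM with a median of 0.222 in humanized mice. The *Egr3* groups overlapped over most of their range (LFC −0.41, SE 0.41, on 19 to 62 and 8 to 43 counts), and its LFC moved to −0.14 without germ-free mouse 5 and to −0.86 without humanized mouse 3.

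Of the 10 genes, 7 had a lower mean in humanized mice, and their median LFC was −0.39. *Fosb*, *Egr1* and *Egr2* were lower without overlap, where 9.73% of all tested genes were, and *Jun* and *Fosl2* were higher without overlap, where 8.67% were. The choice of genes used this contrast, so nothing is read from these counts. At the edge of overlap, *Fosl2* stood just inside and *Fos*, through 1 mouse, just outside. Scaling by total counts moved the median LFC of all genes to −0.18, and the values of the 10 genes moved with it without a change of sign, *Fosl2* to 0.06, *Junb* to 0.09, *Jun* to 0.38 and *Fosb* to −3.01.

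**Figure D1:**
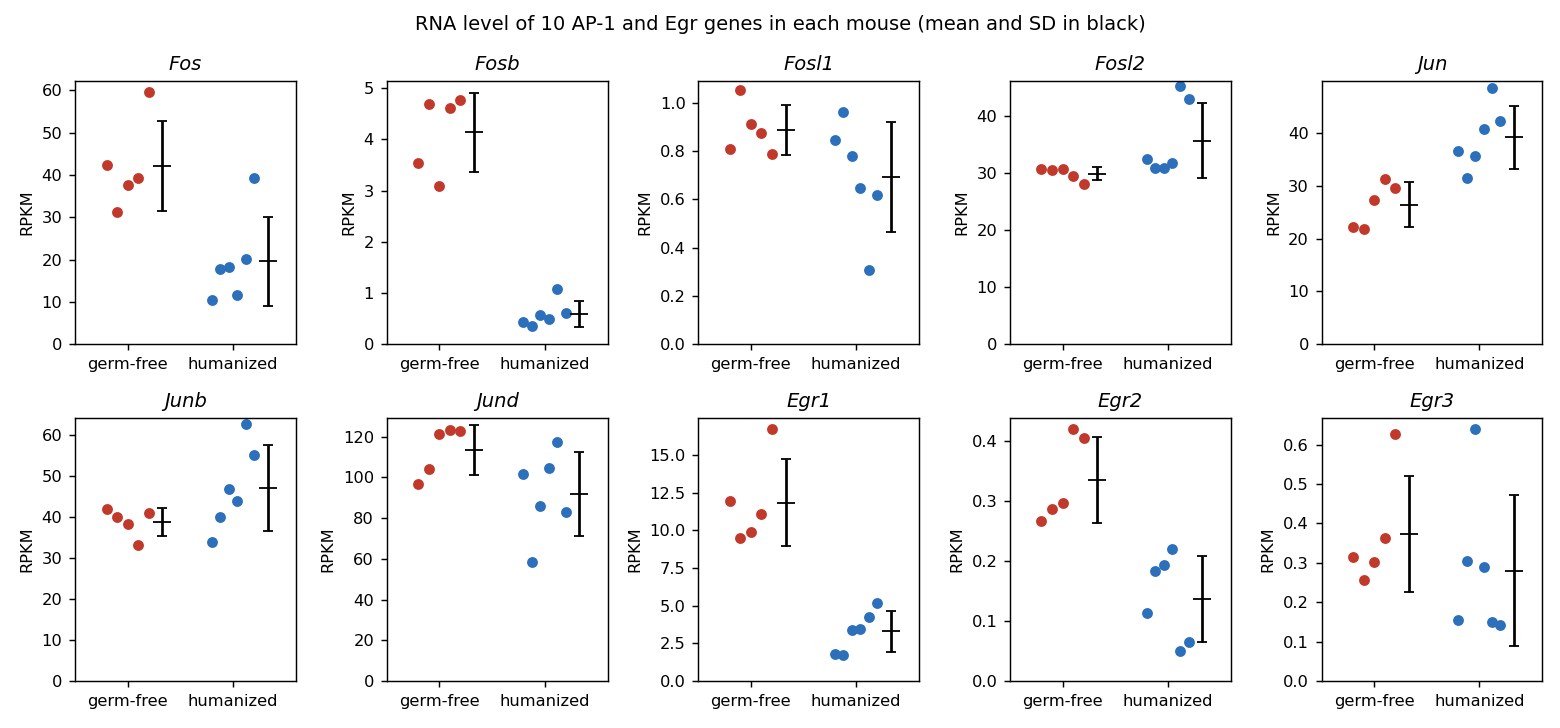
RNA level (RPKM, linear axes from 0) of the 10 genes, with 1 point per mouse for 5 germ-free and 6 humanized mice and the mean and SD in black. *Fosb*, *Egr1* and *Egr2* of humanized mice lie below all germ-free points, *Jun* lies above them, and 1 humanized mouse at 39.3 RPKM brings *Fos* into the germ-free range.

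The order of levels differed between the groups. In germ-free mice it ran *Jund*, *Fos*, *Junb*, *Fosl2*, *Jun*, *Egr1*, *Fosb*, *Fosl1*, *Egr3*, *Egr2*. The ranges of *Fos* and *Junb*, of *Fosl2* and *Jun*, and of *Egr3* and *Egr2* overlapped, and in each of these pairs the first was higher in only 3 of 5 mice. In humanized mice the order ran *Jund*, *Junb*, *Jun*, *Fosl2*, *Fos*, *Egr1*, *Fosl1*, *Fosb*, *Egr3*, *Egr2*, and of the neighbors only *Fos* and *Egr1*, and *Egr1* and *Fosl1*, had separate ranges. *Fos* thus stood above *Junb*, *Fosl2* and *Jun* in the germ-free order and below all of them in the humanized order.

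Composition was then described within each family. The summed level of the 4 Fos genes was 77.0 ± 9.85 RPKM in germ-free and 56.6 ± 15.6 RPKM in humanized mice. *Fos* gave 54.0 ± 6.36% of this sum in germ-free and 33.1 ± 8.52% in humanized mice, with overlap. *Fosb* gave 5.42 ± 1.13% and 1.04 ± 0.329%, and *Fosl2* gave 39.4 ± 5.65% and 64.6 ± 8.15%, both without overlap. *Fosl2* was thus the main Fos gene by RNA in humanized mice and *Fos* in germ-free mice.

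The Jun family had a near equal sum, 178.9 ± 14.6 and 178.2 ± 32.0 RPKM, and its makeup differed. *Jun* gave 14.7 ± 1.37% in germ-free and 22.1 ± 1.34% in humanized mice, and *Jund* gave 63.4 ± 2.11% and 51.3 ± 5.34%, neither with overlap. The ratio of *Fos* to *Jun* was 1.597 ± 0.344 in germ-free mice (1.25 to 2.02) and 0.498 ± 0.241 in humanized mice (0.282 to 0.928). Every germ-free mouse had more *Fos* than *Jun* RNA per length, and every humanized mouse less. *Fosb* amounted to 10.3 ± 3.06% of *Fos* in germ-free and 3.41 ± 1.46% in humanized mice, so that it was lower relative to *Fos* as well. The Egr sum was 12.5 ± 3.08 and 3.72 ± 1.32 RPKM, of which *Egr1* made 94.4% and 87.4%.

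**Figure D2:**
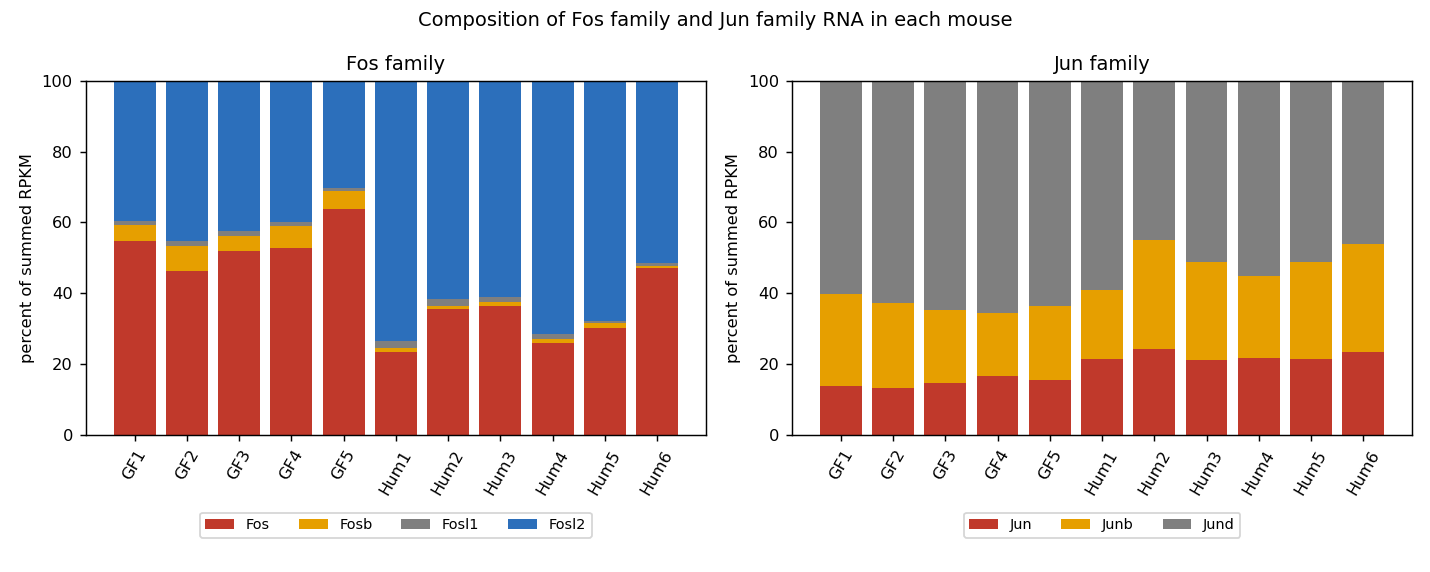
Share of each gene in the summed RPKM of the Fos family and of the Jun family (percent, axis from 0 to 100) in each of the 11 mice. *Fos* and *Fosb* take smaller shares in humanized mice, where *Fosl2* averages 64.6%, and *Jun* averages 14.7% of the Jun family in germ-free and 22.1% in humanized mice.

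Marker genes of the outer gut wall moved with the groups, and these values stand beside all comparisons here. All 12 smooth muscle markers were called lower in humanized mice (exact test), with a median LFC of −1.98, and their summed level was 458.6 to 1288 RPKM in germ-free and 66.7 to 459.4 RPKM in humanized mice. Of the other markers, 7 of 10 fibroblast genes and 9 of 11 neuron and glia genes were called lower, with median LFC −1.44 and −1.75. Of 8 endothelial genes 0 passed edgeR's exact test, 6 had an unadjusted p below 0.05, and 0 passed the quasi-likelihood test and 2 DESeq2, at a median LFC of −0.98 and summed levels of 24.4 to 30.1 and 3.27 to 21.8 RPKM. Of 10 tested leukocyte genes 3 were called higher, with summed levels of 83.9 to 107.7 and 38.7 to 208.2 RPKM. Of the 6 adipocyte genes 3 were tested and 0 passed the exact test, with 1 at an unadjusted p below 0.05 and 0 called by the quasi-likelihood test or DESeq2, and summed levels were 7.12 to 32.0 and 8.11 to 10.95 RPKM. Of 11 epithelial genes 1 was called higher, with summed levels of 3882 to 5373 and 4457 to 6055 RPKM. Genes tied to position along the colon moved as well, *Car1* standing at 3044 ± 619.8 and 7698 ± 1770 RPKM and *Hoxd10*, a Hox gene of posterior positions, at 3.13 ± 0.59 and 1.31 ± 0.60 RPKM. Their part in the members' levels was not tested. In bulk tissue, fewer cells of a type and less RNA per cell cannot be told apart.

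Germ-free mouse 1 and humanized mouse 6 had near equal smooth muscle sums of 458.6 and 459.4 RPKM. Between these 2 mice *Fos* stood at 42.4 and 39.3 RPKM, *Fosb* at 3.54 and 0.612 RPKM, *Egr1* at 11.9 and 5.19 RPKM and *Jun* at 22.1 and 42.4 RPKM. The pair is 1 mouse per group, picked after the values were seen, and it differed in other tissue markers. Summed levels were 320.8 and 128.5 RPKM for fibroblast, 9.50 and 4.20 RPKM for neuron and glia, 27.8 and 16.1 RPKM for endothelial and 3882 and 6055 RPKM for epithelial markers.

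Within groups, marker levels also moved with some members. Pearson's r was taken over the 11 mice after removal of group means. Member and marker values of a mouse come from the same library, and depth differs between mice. *Fosb* had an r of −0.67 with endothelial, −0.66 with fibroblast, −0.62 with leukocyte and 0.59 with epithelial markers. With smooth muscle it was −0.26, with neuron and glia −0.20 and with adipocyte markers 0.09. For *Fos* the values ran from −0.02 (leukocyte) to 0.37 (smooth muscle), and for *Egr1* from −0.29 (leukocyte) to 0.38 (epithelial). The mean deviation of 8 members, all but the sparsely counted *Egr2* and *Egr3*, had an r of 0.55 with epithelial and −0.43 with leukocyte markers, and that of all 10 had 0.08 and 0.21. The part of tissue composition in the members' levels was not tested.

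**Figure D3:**
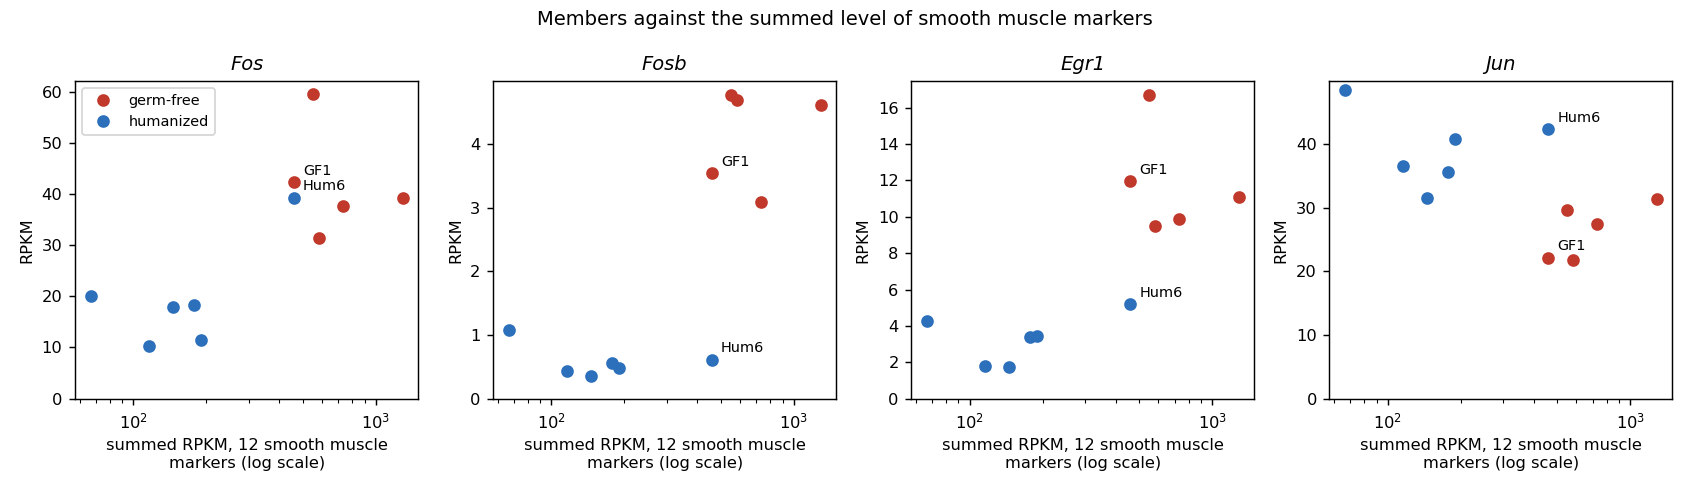
Level of members (RPKM) against the summed RPKM of 12 smooth muscle markers (log scale), 1 point per mouse. Germ-free mice lie at 458.6 RPKM or more on the horizontal axis and humanized mice at 459.4 RPKM or less, so the groups meet in 2 mice, which still differ in other tissue markers.

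Spread between mice of a group was compared with that of all genes. The median SD of log2 levels over the 10 genes was 0.26 in germ-free and 0.55 in humanized mice, and over all tested genes 0.15 and 0.24. The germ-free SD was above that median for 8 of the 10 genes, all but *Fosl2* and *Junb*, and the humanized SD for 9, all but *Jun*. The SD was larger in humanized mice for 9 of the 10 genes, all but *Jun*, and for 80.5% of all tested genes.

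Deviations within groups were then compared between the genes. With group means removed, Pearson's r over the 11 mice was 0.79 for *Egr1* and *Junb*, 0.77 for *Jun* and *Jund*, 0.76 for *Fosl2* and *Junb* and 0.70 for *Fos* and *Egr1*. By group, *Egr1* and *Junb* had 0.29 in germ-free and 0.87 in humanized mice and *Fosl2* and *Junb* 0.13 and 0.82, while *Fos* and *Egr1* had 0.98 and 0.65 and *Jun* and *Jund* 0.94 and 0.79. Whether the groups differ in these correlations was not tested. *Fos* and *Fosb* had an r of only 0.35 over the 11 mice, and the median over all 45 pairs was 0.19. Opposed deviations were seen for *Fosl2* and *Egr2* (−0.94) and for *Fosb* and *Fosl1* (−0.83). For the first pair r was −0.87 in germ-free and −0.95 in humanized mice, and for *Fosb* and *Fosl1* it was 0.10 and −0.96. Humanized mouse 5 stood furthest from its group mean in each of these genes. Its log2 deviations were 0.36 for *Fosl2*, −1.11 for *Egr2* (8 counts), 0.95 for *Fosb* and −1.04 for *Fosl1*. Humanized mouse 6 stood at 0.29 for *Fosl2* and −0.79 for *Egr2* (11 counts). All values of a mouse come from the same library and share its depth. The mean deviation of the 8 members without *Egr2* and *Egr3* had an r of 0.89 with the total count of the mouse (log2, group means removed). Over all 10 members this r was 0.60, and humanized mouse 3 had the highest mean deviation of its group, at 0.21 on the log2 scale. The part of depth was not tested. Over all pairs, the median moved to 0.02 without humanized mouse 2.

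**Figure D4:**
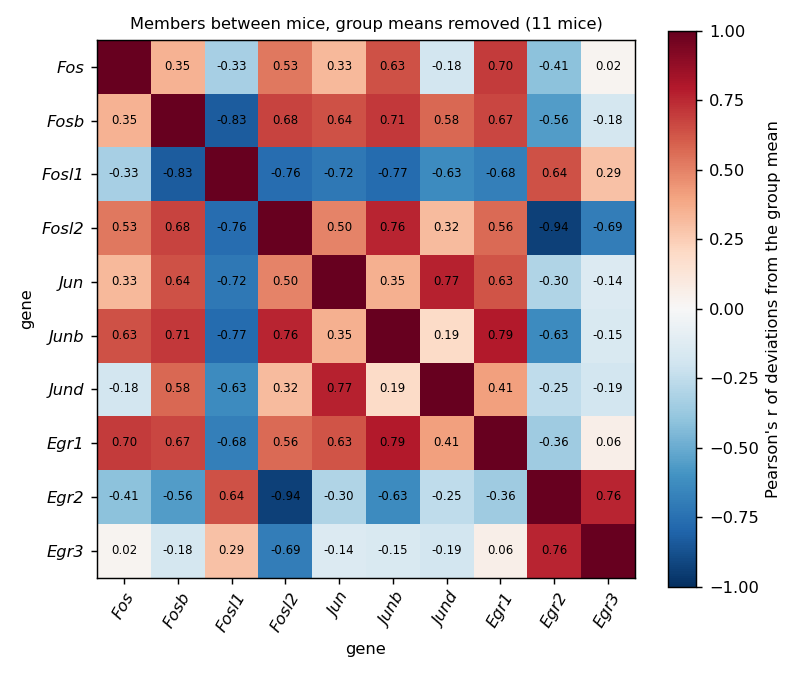
Pearson's r between the 10 genes over 11 mice after removal of group means (color scale in r). *Egr1* with *Junb* (0.79) and *Fosl2* with *Egr2* (−0.94) mark the extremes among the pairs described.

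Genes outside the family with the most similar deviations were sought among 10385 genes with a mean CPM (counts scaled to library size) of at least 10. The mean deviation of the 8 members with a mean CPM of at least 1 was most like *Pacs2* (r = 0.96), *Dgkq* (0.94), *Fastkd3* (0.94), *Ahnak* (0.93), *Brd9* (0.92), *Tmem106a* (0.92), *Gcnt2* (0.91), *Igsf3* (0.91), *Cep350* (0.90) and *Dgkh* (0.90). *Fos* was most like *Crlf3* (0.94) and *Hbegf* (0.92), *Fosb* like *2210015D19Rik* (0.94) and *Slc51a* (0.94), *Fosl2* like *Dock5* (0.96) and *Egr1* like *Pacs2* (0.95). *Junos* (0.94) was among the closest to *Jun* and *Gm11175* (0.99) was the closest to *Jund*, the genes that overlap them. All these values are the highest among 10385 genes over only 11 mice and were not tested. The mean deviation of the 8 members also had an r of 0.89 with total count, and the part of depth was not tested.

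The other genes of the early response were taken from a list of 51, of which 50 were tested (*Egr4* was not). In humanized mice 16 of them (32%) were called lower and 5 (10%) higher, beside 10.1% and 9.2% of all genes, and the median LFC was −0.21. Scaled by total counts, 20 were called lower and 1 higher, while over all tested genes 3609 were called lower and 773 higher. The list was also chosen with earlier results known. *Hbegf*, a growth factor that activates the EGF receptor, was among the clearest, at 17.1 ± 2.40 and 5.67 ± 1.86 RPKM (LFC −1.59, SE 0.20, FDR = 2.88e-12). *Sgk1*, a kinase that promotes sodium uptake, fell from 66.3 ± 11.6 to 28.8 ± 3.01 RPKM (LFC −1.20, FDR = 5.47e-20), and *Per1*, a clock gene with an early response, from 18.3 ± 2.09 to 8.84 ± 1.504 RPKM (LFC −1.05, FDR = 1.79e-15).

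The remaining genes named from this list that fell were *Arc* (LFC −2.27, SE 0.31, FDR = 6.94e-10), known from neuronal synapses, *Npas4* (−1.65), *Cyr61* (−1.496, FDR = 2.11e-06), a secreted matrix protein, *Klf2* (−1.19), a zinc finger factor of endothelium and lymphocytes, and the kinase *Sik1* (−1.07, FDR = 3.49e-05). *Arc* and *Npas4* stood at 0.288 and 0.206 RPKM even in germ-free mice. The 5 genes called higher were *Nfkbiz*, a partner of NF-κB (7.31 ± 1.42 to 18.8 ± 3.02 RPKM, LFC 1.36, FDR = 1.85e-17), *Dusp5*, a phosphatase of ERK (0.73), *Socs3*, an inhibitor of cytokine signaling (0.62), the kinase *Pim1* (0.60) and *Btg2*, which restrains proliferation (0.38). Under total counts *Dusp5*, *Socs3*, *Pim1* and *Btg2* lost their calls. *Npas4* lost its call with edgeR's quasi-likelihood test. Of early genes often measured beside *Fos*, *Atf3* (LFC −0.75, FDR = 0.0122), *Nr4a1* (−0.73, 0.0171) and *Dusp1* (−0.56, 0.0141) did not pass. These 3 were picked after their values were seen.

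Other basic leucine zipper (bZIP) genes, only some of which can pair with Fos or Jun, gave 1 call in 24 tested (4.17%). This was *Jdp2*, a repressor that binds AP-1 sites, which fell from 2.09 ± 0.40 to 0.929 ± 0.262 RPKM (LFC −1.17, SE 0.22, FDR = 3.57e-05). Over all tested genes 10.1% were called lower and 9.2% higher. Under total counts 6 bZIP genes were called, all of them lower, where 3609 of all tested genes were lower and 773 higher.

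Of 44 kinases and factors upstream of the members, 6 (13.6%) were called lower and 2 (4.55%) higher, beside 10.1% and 9.2% of all tested genes. Total counts gave 3609 lower and 773 higher over all tested genes, and 11 lower and 2 higher in this list. Those named were the kinases *Mapk10* (LFC −1.95, FDR = 0.00178), *Rps6ka2* (−0.86, FDR = 8.64e-07) and *Mapk12* (−0.78, FDR = 0.00107), and *Nab2*, a corepressor that Egr proteins induce and that binds them (2.47 ± 0.256 to 1.403 ± 0.349 RPKM, LFC −0.82, FDR = 5.42e-04). *Mapk10* stood at 0.126 RPKM in germ-free mice and lost its call without germ-free mouse 1 and with the quasi-likelihood test. The p38 kinase *Mapk13* rose from 101.0 ± 2.60 to 155.1 ± 18.0 RPKM (LFC 0.62, FDR = 2.04e-10), and the ERK kinase *Map2k1* rose from 35.6 to 53.2 RPKM (LFC 0.58, FDR = 2.49e-07).

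Known AP-1 target genes moved in both directions, with 7 of 28 tested (25%) called lower and 7 (25%) higher. The shares over all tested genes were 10.1% and 9.2%. Total counts called 3609 of all tested genes lower and 773 higher, and scaling to epithelial markers 2146 and 560. Among the targets, total counts called 9 lower and 4 higher, and epithelial scaling 7 lower and 2 higher. Lower were *Mmp9*, a gelatinase (LFC −1.52, FDR = 2.41e-06), *Dcn*, a matrix proteoglycan that fibroblasts express (−1.38), the receptor gene *Ngfr* (−1.56) and the urokinase gene *Plau* (−1.34). Higher were *Mmp10* (2.83, SE 0.52, FDR = 4.07e-06) and *Mmp3* (2.51, SE 0.74, FDR = 0.00734), stromelysins at 0.109 and 0.0565 RPKM in germ-free mice, *Hmox1*, a heme-degrading enzyme (1.37, FDR = 1.28e-06), and the urokinase receptor gene *Plaur* (0.67), which lost its call when scaled to epithelial markers. *Dcn* lost its call with the quasi-likelihood test. *Mmp3* kept its call under 8 of 22 alternatives, *Ngfr* under 11 of 22 and *Plau* under 14 of 23. Calls numbered 9 without any one of germ-free mice 3, 4 or 5 or humanized mouse 6, and 7 with the quasi-likelihood test, against 14.

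Genes of heat shock and tissue handling, given as a measured companion, were called higher in 6 of 14 cases (42.9%) and lower in 1 (7.14%). Shares over all tested genes were 9.2% higher and 10.1% lower. The chaperone genes *Hspa8* (LFC 0.65, FDR = 1.58e-04), *Hspa5* (0.67, FDR = 0.00194) and *Hspd1* (0.53, FDR = 5.53e-04) were higher, as was *Hmox1*, which is also among the AP-1 targets, and *Hspb1* was lower (−1.33, FDR = 0.00361). The inducible genes *Hspa1a* and *Hspa1b*, picked after their values were seen, stood at LFC −0.08 and −0.13 and did not pass. *Hspa5* and *Hspb1* lost their calls with the quasi-likelihood test, *Hspa5* also without germ-free mouse 1, and *Hspb1* also without germ-free mouse 3, germ-free mouse 4 or humanized mouse 1. Under total counts 2 were called higher and 1 lower, *Hspa5* and *Hspd1* losing their calls. Scaled to the 11 epithelial markers 1 was called higher and 1 lower, with all 3 chaperone genes above losing theirs. Both scalings also called fewer of all tested genes higher, 773 and 560 against 1827. Calls numbered 3 with the quasi-likelihood test and 4 without germ-free mouse 4 or without humanized mouse 1, against 7. The part of handling in the members' levels was not tested.

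**Figure D5:**
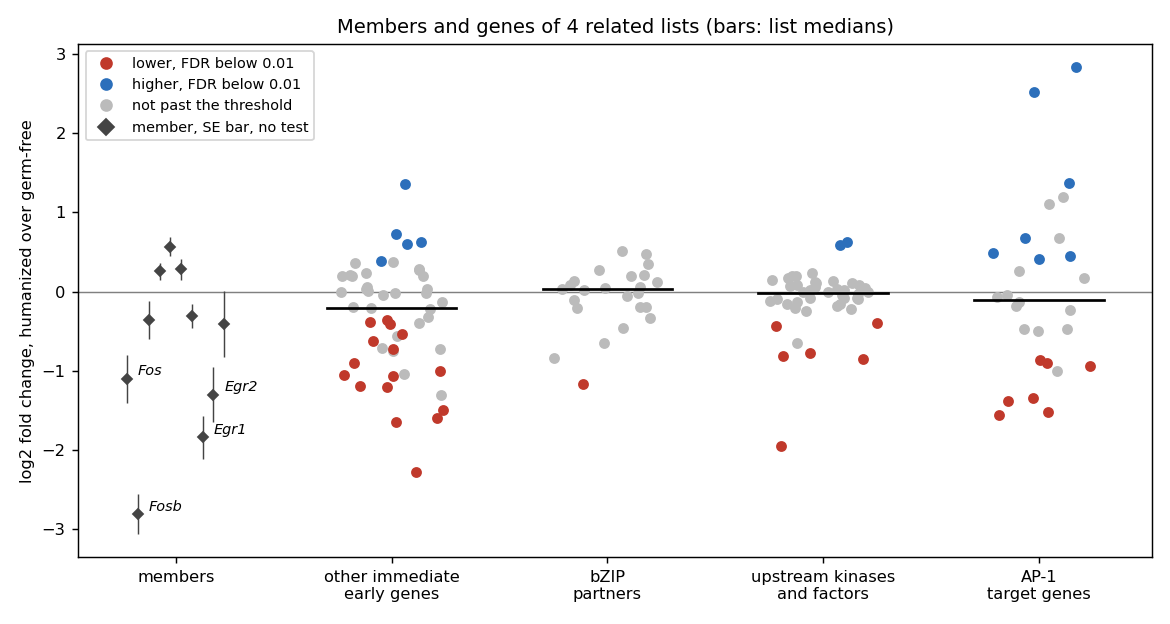
LFC (humanized over germ-free, log2) of the 10 genes and of 4 related lists, with 1 point per gene, SE bars for the members, a line at the median of each list, and colors for genes called lower or higher. The median over the members is −0.39. The lines stand at −0.21 for other immediate early genes, 0.03 for other bZIP genes, −0.02 for upstream genes and −0.10 for AP-1 targets.

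Many immediate early genes are short and give unstable RNA. The median span of the members on mm10 was 4273 bases against 16041 over all tested genes, and 9 of 10 lay under 10000 bases, where 38.6% of tested genes did. The nonamer TTATTTATT of AU-rich elements, which mark RNA for decay, was present in the 3′UTR (GENCODE, GRCm38) of *Fos* and *Fosl2*, 2 of 10 genes, and in 7.85% of 15063 tested genes with a 3′UTR. The pentamer ATTTA had a median density of 2.19 per kilobase over the members and 1.27 over these genes, with 4.91 in *Fos*. The 2 sites are shown with 10 bases on each side and the nonamer in capitals, since of the 10 only these genes hold it.
Fos: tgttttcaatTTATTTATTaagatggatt
Fosl2: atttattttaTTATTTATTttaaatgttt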

How the data were processed

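The authors aligned 101 bp paired-end reads of poly-A RNA (TruSeq v2, unstranded) to mm10 with TopHat2 2.1.0 and Bowtie2 2.2.3, and deposited raw counts per gene from featureCounts (Subread 1.4.6-p5). How the deposited coding length was computed is not given in the sources used here. The 10 members and all gene lists were chosen with earlier results of these data known. In R 4.3.3 with edgeR 4.0.16, all 43346 genes were filtered with filterByExpr (minimum count 10, total 15, large n 10, proportion 0.7), scaled with TMM and tested between groups (classic exact test, FDR by Benjamini–Hochberg, threshold 0.01). No mouse was left out. The test was first tried on simulated counts.

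Named were the 10 members, the 8 highest and 8 lowest LFC among called early genes, the 4 highest and 4 lowest of each other list, and the genes most similar between mice (prior count 2). Alternatives were edgeR's quasi-likelihood test, DESeq2 1.42.0, other scalings and filters, other thresholds, a replicate block, and leaving out each mouse. Leaving out humanized mice 5 and 6 together was chosen after seeing the data. Depths of 39125290 to 64148538 counts leave genes of few counts, such as *Egr2* and *Egr3*, imprecise. No column of other samples was present. The result of 1 marker gene is not reported here.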

Additional observations from a re-analysis of the deposited data

Results flagged for a closer look

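Of 20 groups of mice (10 genes in either group), 4 held a mouse that stood far from the rest by Dixon's criterion, where chance gives about 1 in 20. *Fos* in humanized mouse 6 was 39.3 RPKM, with the next mouse at 20.05 and the lowest at 10.3 RPKM. *Fosb* in humanized mouse 5 was 1.08 RPKM, with the next at 0.612 and the lowest at 0.359 RPKM. *Egr3* in germ-free mouse 5 was 0.626 RPKM, with the next at 0.362 and the lowest at 0.256 RPKM. *Egr3* in humanized mouse 3 was 0.641 RPKM, with the next at 0.304 and the lowest at 0.141 RPKM.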

How the results depend on the processing

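No member changed direction under the alternatives that gave it an LFC, which leaves out *Egr2* and *Egr3* under the filter of 10 counts in every mouse and all members under both other thresholds. Under that filter 5 of 8 members were lower, 2 without overlap, and under total counts or epithelial scaling 4 of 10 were lower without overlap, against 3. The median LFC of the members was −0.63 to −0.31 when each mouse was left out, 7 members were lower each time, and 3 to 4 were lower without overlap. The median correlation between members was 0.023 to 0.275 when each mouse was left out, against 0.19.

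Lists moved more. The quasi-likelihood test called 7 AP-1 targets and 3 heat shock genes, against 14 and 7. DESeq2 called 4 other bZIP genes, against 1. Total counts called 6 other bZIP genes, 13 upstream genes and 3 heat shock genes. Scaling to epithelial markers called 2 other bZIP genes, 9 AP-1 targets (7 lower and 2 higher) and 2 heat shock genes. It called 19 early genes lower and 1 higher, and over all genes 2146 lower and 560 higher. FDR below 0.05 called 6 other bZIP genes. FDR below 0.01 with an absolute LFC above 1 called 1678 genes in all, 9 other early genes, 1 upstream gene, 7 AP-1 targets and 2 heat shock genes. Without humanized mice 5 and 6 together, 2 other bZIP genes were called. *Fos* then joined the members lower without overlap (4), and the median LFC of the members was −0.26. LFC was then −1.54 for *Fos*, −3.16 for *Fosb*, −2.19 for *Egr1* and −0.38 for *Jund*, further from 0, and −0.92 for *Egr2*, −0.09 for *Egr3*, −0.13 for *Fosl1*, 0.07 for *Fosl2*, 0.08 for *Junb* and 0.45 for *Jun*, nearer to 0. When each mouse was left out, calls ranged from 2880 to 4411 genes in all, 18 to 24 other early genes and 1 to 3 other bZIP genes. They ranged from 7 to 9 upstream genes, 9 to 17 AP-1 targets and 4 to 9 heat shock genes. Of 730 combinations of 32 named genes and alternatives, 89 lost the call and 0 changed sign. The causes were not tested.

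Replicate numbers did not pair the mice: same-numbered mice had correlations of −0.13 to 0.09 in their deviations, and 2 of 5 germ-free and 1 of 5 humanized mice correlated best with their own number. With the numbers as a replicate block in the quasi-likelihood fit, 1012 genes were called in all, with 9 other early genes, 3 upstream genes, 6 AP-1 targets and 1 heat shock gene.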
